A study of Homo sapiens with 2 samples.

Results

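The transcripts described here are long noncoding RNAs and host transcripts of small RNAs in HCT116, an epithelial line from a human colorectal carcinoma, with and without knockdown of RAP1. Members were the genes named LINC followed by digits, SNHG followed by digits, or MIR followed by digits or letters and ending in HG. Members were also chosen by signal: a probe set that carries the symbol alone had to reach, on the higher of the 2 arrays, an intensity of 78.0 (6.29 as log2), which is the median over both arrays without control probe sets. This floor left 25 of 166 such genes on the array, among 10437 genes measured past it in all. They were 8 of 10 SNHG genes, 2 of 6 microRNA host genes and 15 of 150 LINC genes. All 25 are annotated as lncRNA in RefSeq. Because the floor was set on the same values, the levels are a description of the choice and not a finding.

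One culture was infected with a lentivirus that carries an shRNA against RAP1 (labelled sh-RAP1-4#, here shRAP1) and the other with a lentivirus that carries a negative-control shRNA (shNC), so the control, which the series calls wild type, was infected too. Both were HCT116 cells taken 72 h after infection at a multiplicity of infection of 20, and each gave 1 array. The design used 1 cell line and 1 shRNA against the target, and the stated question was what RAP1 does in colorectal cancer cells. With 1 array a group there was no test, no replicate error and no p-value for any value below, and precision is limited by there being so few arrays. All differences are shRAP1 minus shNC of log2 values, and RNA came from whole cultures, so fewer cells holding a transcript and less of it per cell cannot be told apart.

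Small nucleolar RNAs and many microRNAs are cut from longer transcripts. In an SNHG gene the introns carry snoRNAs, which guide chemical modification of ribosomal and other RNA (box C/D snoRNAs 2′-O-methylation, box H/ACA snoRNAs pseudouridylation), while the spliced exons leave as a polyadenylated RNA with little coding capacity. Several of these host RNAs begin with a run of pyrimidines, as the mRNAs of ribosomal proteins do, and are degraded by nonsense-mediated decay. A microRNA host transcript is cut by the nuclear enzyme DROSHA to release the hairpin of its microRNA, and LINC is a name for intergenic noncoding genes that mostly lack an assigned function. The array reads polyadenylated RNA near its 3′ end, so it measured the host transcripts and not the mature small RNAs.

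The gene spans in RefSeq place small RNA genes inside 10 of the members. All 8 SNHG members hold at least 1 snoRNA gene. SNHG1 holds 8 (SNORD22 and SNORD25 to SNORD31), SNHG12 holds SNORD99, SNORA61, SNORA44 and SNORA16A, and SNHG29 holds SNORD49A, SNORD49B and SNORD65. SNHG7 holds SNORA17A and SNORA17B, SNHG32 holds SNORD48 and SNORD52, SNHG11 holds SNORA60 and SNORA71E, SNHG8 holds SNORA24, and SNHG9 holds SNORA78. MIR22HG holds MIR22 and MIR1915HG holds MIR1915. No LINC member holds a snoRNA or microRNA gene (0 of 15). MIR22HG was the member with the largest difference, so the arms of its microRNA are shown (RefSeq, GRCh38.p14), with the seed, bases 2 to 8, in capitals. The arms have different seeds. They lie on the minus strand of chromosome 17 at chr17:1713914-1713935 (3p) and chr17:1713952-1713973 (5p).
hsa-miR-22-3p: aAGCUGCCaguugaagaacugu
hsa-miR-22-5p: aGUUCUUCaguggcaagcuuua

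Start sequences show how the SNHG members differ among themselves. RefSeq promoter windows (250 bases before to 50 from the annotated start, GRCh38.p14) were found for 21 of the 25 members, 7 of them SNHG genes. An unbroken run of C and T that begins with C at the first transcribed base and is at least 4 bases long was present at 3 of 7 SNHG starts (42.9%), at 0 of 12 LINC starts and at 0 of 2 microRNA host starts. The same run stood at 1489 of 27305 starts in the whole table (5.45%), and at 40 of 64 starts of ribosomal protein genes (62.5%), the class for which such starts are known. The windows below give 10 bases before the annotated start and 20 from it, with the run from a starting C in capitals.
SNHG12 (chr1:28581854-28581883, minus strand): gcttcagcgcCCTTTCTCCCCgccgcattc
SNHG32 (chr6:31834906-31834935, plus strand): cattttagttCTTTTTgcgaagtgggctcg
SNHG7 (chr9:136728165-136728194, minus strand): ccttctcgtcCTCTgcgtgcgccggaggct
SNHG1 (chr11:62855866-62855895, minus strand): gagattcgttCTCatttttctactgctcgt
SNHG8 (chr4:118278752-118278781, plus strand): ctcggcctttCacattcgggaagcgtcggg
SNHG11 (chr20:38446644-38446673, plus strand): gctctaggctgcagccgcgcccccagccgt
SNHG29 (chr17:16438977-16439006, plus strand): ccttttgtgaggattgggatattccgactc

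The run was 11 bases long in SNHG12, 6 in SNHG32, 4 in SNHG7, 3 in SNHG1 and 1 in SNHG8, and the annotated starts of SNHG11 and SNHG29 do not begin with C. An annotated start can differ from the start used in HCT116 cells, which the array does not show.

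The knockdown itself was read first. RAP1 can mean TERF2IP, the shelterin protein that binds telomeres through TRF2, or the GTPase genes RAP1A and RAP1B. The signal of TERF2IP was 624 in shRAP1 and 1311 in shNC, or 47.6% of the control, while RAP1A and RAP1B stood at 88.0% and 93.3% of it. The medians of non-control probe sets were 78.9 on the shRAP1 array and 77.0 on the shNC array. Of the epithelial and colorectal markers, 6 of 8 passed the floor on these arrays (EPCAM, CDH1, KRT8, KRT18, KRT19 and CDX2), and VIL1 and CDH17 did not. The 6 had a summed signal of 31717 in shRAP1 and 30945 in shNC, with 5 higher and 1 lower (EPCAM at −0.082). CDX2 read 191 in shRAP1 and 183 in shNC. Of the markers of other cell types on the array, 1 of 4 leukocyte genes (HLA-DRA), 2 of 4 endothelial genes (KDR and VWF) and 0 of 5 fibroblast genes passed the floor. HLA-DRA read 257.6 in shRAP1 and 210.0 in shNC, and the endothelial pair summed to 213.0 in shRAP1 and 208.0 in shNC; the part of other cells in the results was not tested.

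Host and long noncoding transcripts were close to each other on the 2 arrays, with 2 exceptions, both lower in shRAP1. MIR22HG and LINC01588 were at least 1.5-fold lower, 2 of 25 members, against 0.172% of all 10437 genes. LINC01588 passed the floor through shNC alone, the array where it was higher, and with both arrays required to pass, the count was 1 of 22 members (MIR22HG), against 0.118% of genes. No member was at least 1.5-fold higher (0 of 25), against 0.211% of all genes, and none reached 2-fold in either direction, against 0.0192% of all genes in each. At the smaller size of 1.2-fold, 2 members were higher (SNHG7 and LINC00856), against 4.96% of genes, and the same pair, MIR22HG and LINC01588, was lower, against 3.58%. LINC00856 passed the floor through shRAP1 alone, the array where it was higher, while SNHG7 passed on both arrays. Over the 25 members the differences ran between −0.67 and 0.29 with a median of 0.028 (0.0034 to 0.16, an order-statistic interval over genes that leaves out variation between cultures), and over all genes the median was 0.010. By sign alone 19 members were higher, against 53.2% of all genes, and 6 lower, against 46.8%. These became 15 and 10 after a lowess trend over signal was removed, so the balance of signs depends on the centring. As a scale for each difference, the SD over the 500 genes with the closest mean signal was taken, which is a spread between genes and not an experimental error. For 16 members the difference was smaller than 1 such SD, and for 4 (MIR22HG, LINC01588, SNHG7 and SNHG12) it was 2 SD or more. The share of all genes at these sizes was not computed, so these counts do not set the members apart from other genes.

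**Figure D1:**
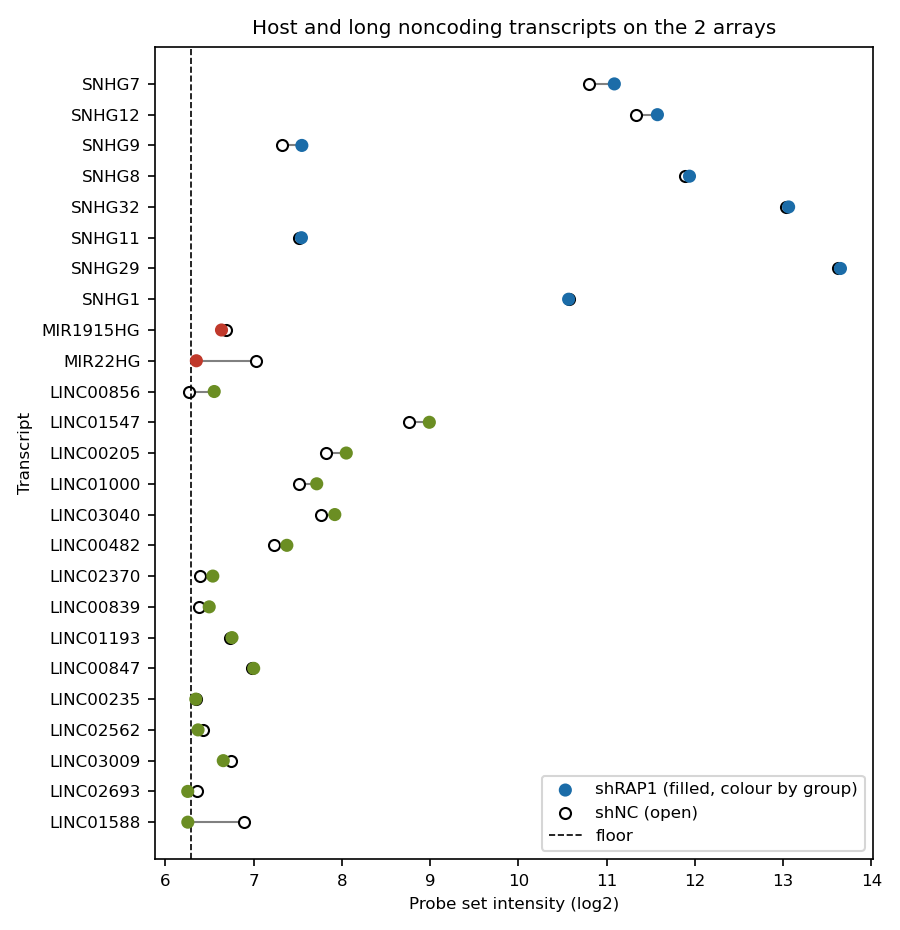
Log2 intensity of the brightest probe set of each of the 25 members, shRAP1 as filled points coloured by group and shNC as open points, 1 array each, with the floor at 6.29 as a dashed line. Filled and open points lie close together except for MIR22HG and LINC01588, and signals of different rows come from different probes and do not rank the transcripts.

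MIR22HG, the host transcript of miR-22, was the clearest of the lower members. Its brightest probe set read 81.6 in shRAP1 and 130.2 in shNC, which is 62.7% of the control. The difference of −0.67 was 3.83 times the SD of genes of like signal, and 9th from the lowest of 10437 genes. Both arrays lay above the floor, the shRAP1 array by little. The gene has 5 single-symbol probe sets, and all 5 were lower in shRAP1. A further probe set passed the floor and gave −0.71 (78.3 in shRAP1 and 128 in shNC). The 3 below the floor were at −0.67, −0.20 and −0.13. The first of these 3 gave the same difference as the brightest probe set to every digit computed, −0.674103, at a lower signal. Equal differences also occur between genes below the floor, such as SNHG17 and LINC01587, both at 0.173698, and whether the MIR22HG probe sets share probes was not tested. Probe sets of a gene read the same RNA on the same array and are not replicates. The next measured genes along chromosome 17 were PRPF8, a core protein of the spliceosome, at −0.080 and WDR81 at 0.0093.

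**Figure D2:**
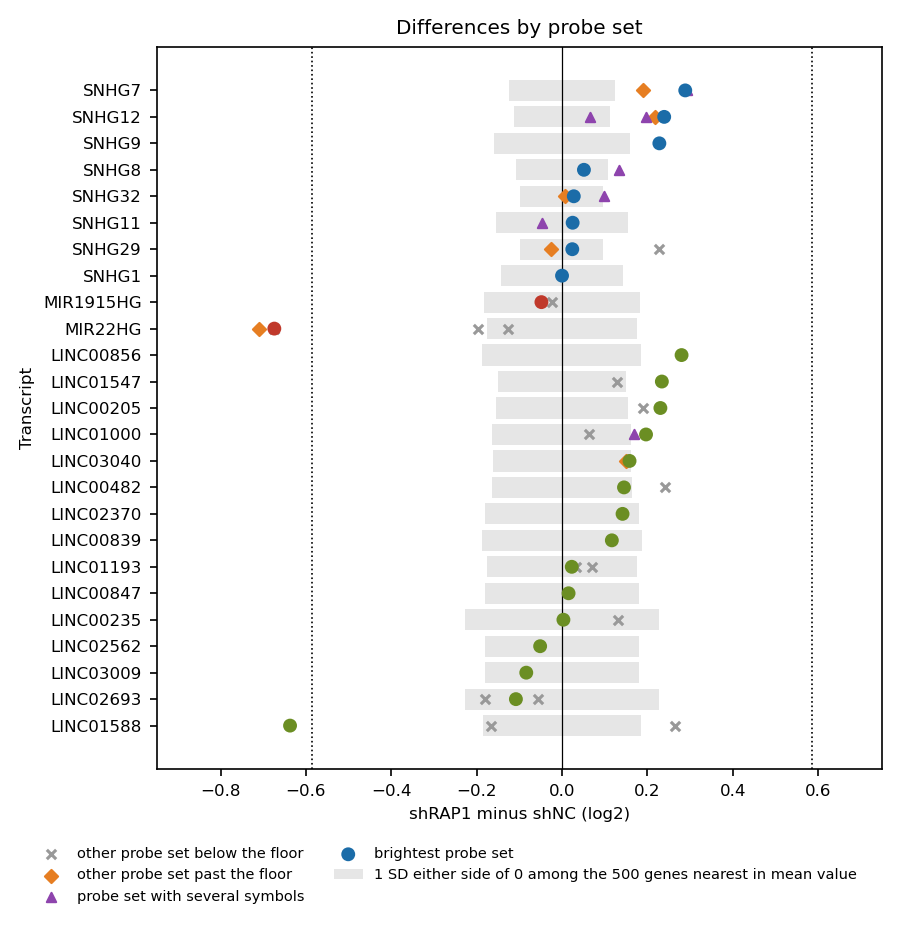
Difference between shRAP1 and shNC (log2) for every single-symbol probe set of each member, and for its probe sets with several symbols that passed the floor. Grey bars span 1 SD either side of 0 among the 500 genes nearest in mean signal, and dotted lines mark 1.5-fold. Circles are the brightest probe sets, coloured by group (SNHG blue, MIR host red, LINC green). MIR22HG stands left of the dotted line on both probe sets past the floor (−0.67 and −0.71), LINC01588 on its single one, and 1 MIR22HG probe set below the floor is hidden under its circle.

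Its promoter window is shown because MIR22HG was the leading member (RefSeq, GRCh38.p14, chr17:1716161-1716460, minus strand). Capitals mark the GC box (GGGCGG, or CCGCCC on the other strand), which 10 of 21 members and 44.6% of all windows hold.
MIR22HG: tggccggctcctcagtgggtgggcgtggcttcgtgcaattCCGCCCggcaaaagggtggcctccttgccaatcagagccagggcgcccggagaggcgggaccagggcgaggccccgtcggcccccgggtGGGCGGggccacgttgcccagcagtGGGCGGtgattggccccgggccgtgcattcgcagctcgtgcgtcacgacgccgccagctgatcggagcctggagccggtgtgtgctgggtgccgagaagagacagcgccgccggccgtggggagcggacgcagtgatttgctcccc

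The window held none of the other 5 motifs searched on both strands: the E-box CACGTG (in 7.43% of all windows), the TATA box TATAAA (in 3264 of 27305), the cAMP response element TGACGTCA (1.98%), the AP-1 site TGACTCA (4.92%) and the telomere repeat unit TTAGGG (8.94%), which telomere proteins bind in tandem arrays. Among members, TTAGGG or its reverse was found in the windows of LINC00856 and LINC03009, 2 of 21 (9.52%). A match of these letters is a description and says nothing of a bound factor.

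The other microRNA host member, MIR1915HG, read 99.4 in shRAP1 and 102.8 in shNC, a difference of −0.048, with its probe set below the floor at −0.023. The difference was 0.26 times the SD of genes of like signal. MIR17HG, the host of the miR-17 to miR-92 cluster, was not a member, because its probe sets also carry the symbols of its microRNAs. The one past the floor read 129 in shRAP1 and 135 in shNC, a difference of −0.059. The 4 microRNA host genes below the floor had signals of 38.9 in shRAP1 or less, and were MIR3667HG, MIR205HG, MIR181A1HG and MIR99AHG.

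LINC01588, an intergenic RNA encoded on chromosome 14, was the other lower member. It read 76.3 in shRAP1 and 118.7 in shNC, a difference of −0.64 and 3.44 times the SD of genes of like signal. The shRAP1 value lay below the floor, so LINC01588 passed through the shNC array alone. With the floor put in place of the shRAP1 value it was at −0.61, still past 1.5-fold. Its other probe sets, both below the floor, disagreed in sign at −0.17 and 0.27. The next measured genes were ARF6, a small GTPase of membrane traffic, at −0.16 and VCPKMT, a lysine methyltransferase, at −0.072.

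Among the snoRNA hosts, SNHG7 and SNHG12 stood highest over shNC. Both hold H/ACA snoRNAs, SNHG12 beside a C/D one, as do SNHG9, SNHG8 and SNHG11, which were at 0.23, 0.051 and 0.025. SNHG7 read 2177 in shRAP1 and 1782 in shNC, a difference of 0.29 and 2.35 times the SD of genes of like signal. Its other probe set, near the floor, was at 0.19 (6.45 in shRAP1 and 6.26 in shNC on the log2 scale), and the probe set shared with SNORA17B was at 0.29. SNHG12 read 3054 in shRAP1 and 2586 in shNC, a difference of 0.24 and 2.12 times that SD. Its other probe set was at 0.22, and those shared with SNORA16A and SNORA61 were at 0.20 and 0.065. All these probe sets of both genes were higher in shRAP1, by less than 1.5-fold. The flanking genes, named after their values were seen, were DIPK1B at 0.13 and TMEM141 at 0.099 beside SNHG7, and TRNAU1AP at −0.36 and TAF12 at 0.14 beside SNHG12.

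The windows of both are shown since they were the brightly measured members that differed most upward (RefSeq, GRCh38.p14, chr9:136728135-136728434 and chr1:28581824-28582123, both minus strand). Capitals mark matches to the 6 motifs. SNHG7 holds the GC box, an E-box and a TATA box, with 2 of its GC boxes overlapping. Of the 6 motifs as spelled, SNHG12 holds the GC box alone. Its window has tatataag before the start, and variants of the TATA box other than TATAAA were not searched. SNHG7 is the 1 of 21 members with an E-box, and TATAAA was found in 5 of 21 (23.8%).
SNHG7: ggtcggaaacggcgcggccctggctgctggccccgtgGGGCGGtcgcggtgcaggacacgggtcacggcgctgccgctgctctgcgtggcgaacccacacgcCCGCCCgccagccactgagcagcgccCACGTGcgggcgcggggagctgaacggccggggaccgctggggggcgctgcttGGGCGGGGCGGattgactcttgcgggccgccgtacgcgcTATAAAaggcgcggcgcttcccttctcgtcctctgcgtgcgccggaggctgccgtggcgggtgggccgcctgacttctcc
SNHG12: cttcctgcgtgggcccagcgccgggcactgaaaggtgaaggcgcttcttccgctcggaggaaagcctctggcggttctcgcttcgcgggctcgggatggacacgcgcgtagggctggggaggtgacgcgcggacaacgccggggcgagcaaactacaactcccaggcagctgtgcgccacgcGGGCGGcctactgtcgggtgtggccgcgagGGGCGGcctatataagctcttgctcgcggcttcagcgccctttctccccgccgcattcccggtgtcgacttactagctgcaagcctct

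The other SNHG members differed less or were dim. SNHG9, which lies next to the ribosomal protein gene RPS2 and holds SNORA78, read 187 in shRAP1 and 160 in shNC, a difference of 0.23 and 1.43 times the SD of genes of like signal, while RPS2 was at 0.023. Its single probe set ends in _s_at. Names with that ending or _x_at belong to less specific probe sets, and 11 of the 25 members were read by one, SNHG7, SNHG29, SNHG32 and SNHG11 among them. SNHG8 read 3928 in shRAP1 and 3790.5 in shNC, a difference of 0.051, and its probe set shared with SNORA24 was at 0.13. SNHG32 read 8559 in shRAP1 and 8397 in shNC, a difference of 0.028, with 0.0081 on its other probe set and 0.10 on the one shared with SNORD48. SNHG29 read 12862 in shRAP1 and 12648 in shNC, a difference of 0.024, with −0.027 on its other probe set past the floor.

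SNHG11 read 186 in shRAP1 and 183 in shNC, a difference of 0.025, and the probe set shared with SNORA60 went the other way at −0.046. SNHG1, the host of 8 box C/D snoRNAs, read 1520.0 in shRAP1 and 1519.9 in shNC, so the arrays did not separate its levels. The 8 SNHG members therefore fell into 3 with differences between 0.23 and 0.29 and 5 between 0.00015 and 0.051. Their median was 0.040. By sign 8 of 8 were higher on their brightest probe sets, against 53.2% of all genes, and 7 of 8 after the lowess trend was removed, where SNHG11 changed sign. The share of all genes higher after centring was not computed. The count includes SNHG1 at 0.00015 and SNHG29, which was at −0.027 on its other probe set past the floor. It therefore depends on the probe set as well as on the centring. Of the 3 with a pyrimidine run of 4 or more at the start, SNHG7 and SNHG12 were at 0.29 and 0.24 and SNHG32 at 0.028.

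**Figure D3:**
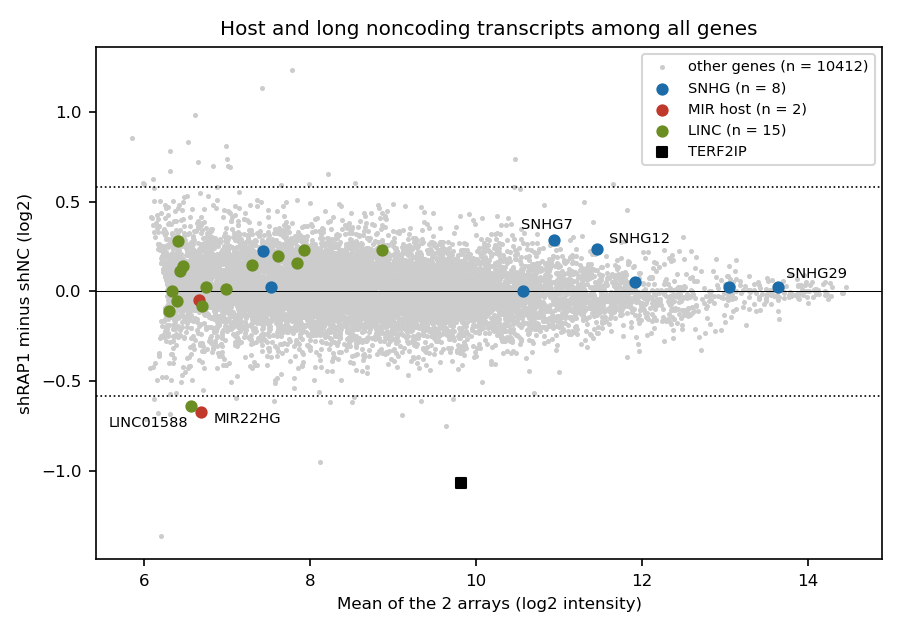
Difference between shRAP1 and shNC (log2) against the mean log2 intensity of the 2 arrays for the other genes in grey and the members in colour, TERF2IP as a square, with dotted lines at 1.5-fold. MIR22HG and LINC01588 lie below the lower line at low signal, and SNHG7 and SNHG12 lie above most genes of their signal.

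The members' signal bears on how their differences read. Genes with a mean under 8 on the log2 scale had a median difference of 0.044 apart from the members, and 2228 of 3610 of them were higher. The 18 members in that range had a median of 0.024, with 12 higher. Among genes with a mean of 10 or more the median was −0.019 apart from the members, with 936 of 2201 higher. The 6 members there, all SNHG genes, were 6 of 6 higher with a median of 0.040, of which SNHG1 was higher by 0.00015 only.

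The median of the 15 LINC members was 0.12 (−0.051 to 0.20), 11 of them higher and 4 lower, against 53.2% of all genes higher. After lowess centring 8 stood higher and 7 lower (median 0.053). LINC00856 was the highest. It read 93.9 in shRAP1 and 77.3 in shNC, a difference of 0.28, and its shNC value was below the floor, so the size is uncertain. LINC01547, the LINC member with the strongest signal, read 509 in shRAP1 and 433 in shNC, a difference of 0.23 with 0.13 on its dimmer probe set. LINC00205, also on chromosome 21, read 265 in shRAP1 and 226 in shNC, a difference of 0.23 with 0.19 on its dimmer probe set. The differences were 1.55 and 1.48 times the SD of genes of like signal, and 719th and 744th from the highest of 10437 genes.

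LINC01000 read 210.1 in shRAP1 and 183 in shNC, a difference of 0.20, on a probe set whose name ends in _x_at, and other copies of this sequence family share further probe sets, so the reading may not belong to LINC01000 alone. LINC03040 was at 0.16 and 0.15 on its 2 probe sets, both ending in _x_at, and LINC00482 at 0.15 and 0.24. LINC02370 and LINC00839 were at 0.14 and 0.12 on 1 probe set each. Each of these 4 differed by less than 1 SD of genes of like signal. The remaining LINC members lay between −0.11 and 0.023. LINC01193, LINC00847 and LINC00235 were at 0.023, 0.015 and 0.0034, and LINC02562, LINC03009 and LINC02693 at −0.051, −0.084 and −0.11. All 3 probe sets of LINC02693 were lower, and its shRAP1 value, 76.3, was below the floor.

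Just inside the floor were LINC00235 (81.3 in shRAP1 and 81.1 in shNC), LINC02693 (76.3 in shRAP1 and 82.2 in shNC) and LINC02562 (82.7 in shRAP1 and 85.7 in shNC). Just outside were LINC02875 (62.1 in shRAP1 and 68.9 in shNC), LINC00941 (62.0 in shRAP1 and 63.3 in shNC) and LINC01166 (59.5 in shRAP1 and 54.0 in shNC). On 22 of the 25 members both arrays passed the floor, and LINC01588, LINC02693 and LINC00856 passed on 1. Of 15 members with several single-symbol probe sets, 13 had all of them of one sign, dim ones included, and the exceptions were LINC01588 and SNHG29. The same share over all genes was not computed, so the count is a description.

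A further 18 probe sets past the floor carried a LINC, SNHG or microRNA host symbol together with other symbols, 12 of them higher and 6 lower, and they were not used for any gene. They are not separate genes: SNHG12 and LINC00869 recur, and some read members already counted, such as SNHG7 and SNHG8. The same share over all probe sets with several symbols was not computed, so the count is a description. Among genes that are no members, SNHG25 with SNORA50C read 95.9 in shRAP1 and 118.5 in shNC, a difference of −0.31. SNHG17 and SNHG28, the SNHG genes below the floor, were at 0.17 and −0.055. Taking the next measured gene on either side of every member gave 49 neighbours, of which 30 had the sign of their member. The same share for neighbours among all genes was not computed, so whether neighbours go with members was not tested.

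Other well known long noncoding RNAs, listed by name, were mixed. Of 30 listed, 11 had a single-symbol probe set and 9 passed the floor, with 4 higher and 5 lower and a median of −0.059. MALAT1, an abundant RNA of nuclear speckles, was at 0.45 (12.05 in shRAP1 and 11.60 in shNC on the log2 scale), but its 3 probe sets past the floor ranged between 0.058 and 0.45. DLEU2, which hosts miR-15a and miR-16-1, was at −0.34 (9.23 in shRAP1 and 9.57 in shNC) on 1 probe set, and CRNDE was at −0.24. UCA1 was at 0.14. ZFAS1 and EPB41L4A-AS1, which are snoRNA hosts under other names, were at 0.0079 and 0.087. None of the 9 reached 1.5-fold, against 0.211% of all genes higher and 0.172% lower.

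The RNAs of genes whose proteins make small RNAs from these hosts were also read, while protein was not measured. The 14 snoRNP protein genes divided into 7 higher and 7 lower, against 53.2% of all genes higher, at a median of 0.00087. None reached 1.2-fold on its brightest probe set, against 4.96% of all genes higher and 3.58% lower. With 14 genes, a count of 0 at these shares does not set the list apart. The leading snoRNP genes were lower: DKC1 and GAR1, of the H/ACA particle, at −0.23 and −0.20, NOP10, of the same particle, at −0.15, and NOP58, of the C/D particle, at −0.13. Of 14 protein-coding snoRNA hosts past the floor 7 were higher and 6 lower, with RPL13A at 0 and a median of 0.012. NCL, the gene of the nucleolar protein nucleolin, was at −0.17, CHD8 at 0.16, NAP1L4 at −0.14 and EIF4A1 at −0.099. None of the 14 reached 1.2-fold on its brightest probe set, which again does not set them apart from other genes. Dimmer probe sets of some differed more: those of HSPA8 past the floor ranged between −0.59 and 0.053, and those of EEF2 between 0.091 and 0.29. The 4 probe sets of EIF4A1 past the floor ranged between −0.099 and 0.16, so its sign depends on the probe set.

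**Figure D4:**
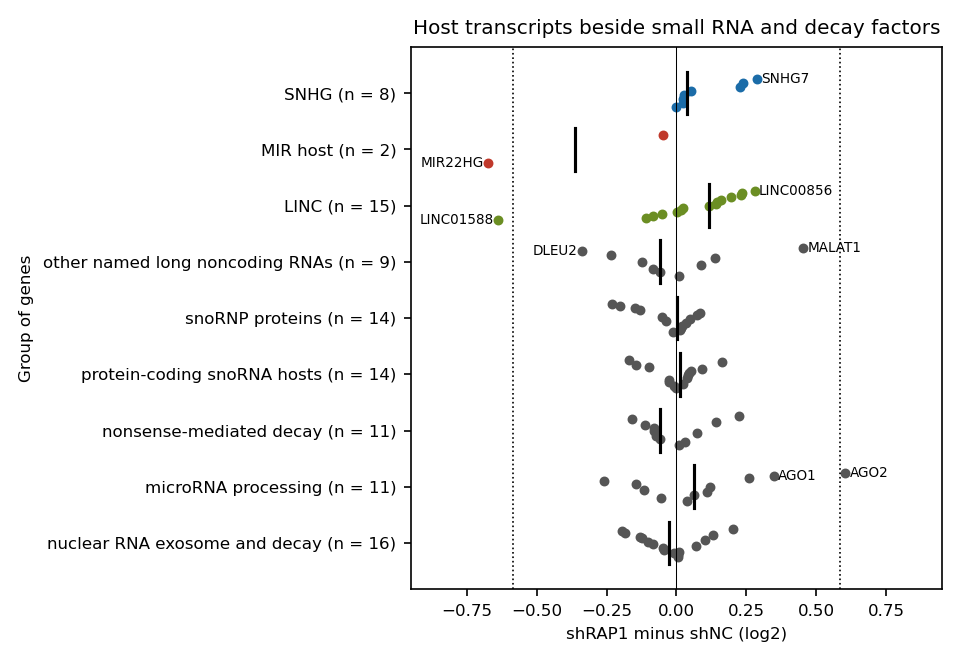
Difference between shRAP1 and shNC (log2) of each gene in the 3 groups of members and in 6 lists of related genes, with the median of each as a black bar and dotted lines at 1.5-fold; genes at least 1.2-fold different are named. Each gene is drawn at its brightest probe set, on which MIR22HG, LINC01588 and AGO2 lie past the dotted lines and the snoRNP and decay lists stay within 1.2-fold.

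Genes of decay factors differed little on their brightest probe sets. Of 11 nonsense-mediated decay genes past the floor 5 stood higher and 6 lower (median −0.057), led by the kinase gene SMG1 at 0.22, MAGOH and RBM8A of the exon junction complex at −0.16 and 0.14, and the endonuclease gene SMG6 at −0.11. Dimmer probe sets of some differed more. Those of SMG1 past the floor ranged between 0.22 and 0.31, which is past 1.2-fold, and those of MAGOH between −0.26 and −0.16. Of 16 genes of the nuclear exosome and its cofactors 7 stood higher and 9 lower (median −0.027), among them EXOSC6 at 0.20, EXOSC8 at −0.20, EXOSC3 at −0.18 and RBM7 at 0.13. Among 11 microRNA processing genes 7 were higher, 4 lower, and the median was 0.062. The argonaute genes AGO2, AGO1, AGO4 and AGO3, whose proteins hold the mature microRNA, were at 0.60, 0.35, 0.26 and 0.12, and DGCR8, the partner of DROSHA, at −0.26. Of all genes 53.2% were higher. These lists were chosen with results of these arrays known, and their counts are a description.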

How the data were processed

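The 2 samples were hybridised to 1 array each, and the authors deposited 1 intensity per probe set, not log-transformed as read from the values. RMA is the one tool that the submitters' processing notes name (background correction, normalisation between arrays and a summary per probe set), with version and genome build not given in the sources used here. Such normalisation makes every difference relative to the other genes. Log2 was taken with no pseudocount. The platform annotation gave 44988 of 49293 probe sets (controls left out) exactly 1 gene symbol, and the 1832 with several and 2473 with none were used for no gene. A gene was its brightest single-symbol probe set past the floor. RefSeq tables (GRCh38.p14) gave names, gene order and sequences, and small RNA genes were assigned by lying inside a host's span.

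Members and lists were chosen with earlier results of these data known. Genes were named by rule: the 3 candidate targets, all SNHG and microRNA host members, LINC members past 1.2-fold, the 5 brightest LINC members, 3 genes either side of the floor, up to 4 genes of each related list by size of difference, and neighbours of members past 1.5-fold. The remaining LINC members, MIR17HG, SNHG25, the hosts below the floor, ZFAS1, EPB41L4A-AS1, RPL13A, HSPA8, EEF2, AGO3, LINC01587, and the neighbours of SNHG7, SNHG12 and SNHG9 were named after their values were seen. Python 3.11.15, numpy 2.4.6, pandas 2.3.3, scipy 1.17.1, statsmodels 0.14.6 (lowess, span 0.3) and matplotlib 3.10.9 were used. The computation was tested on simulated data.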

Additional observations from a re-analysis of the deposited data

Results flagged for a closer look

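One result lay in data outside the gene-level comparison: the probe set that carries both SNHG7 and SNORA17B was 0.29 higher in shRAP1 on the log2 scale (969 in shRAP1 and 790.4 in shNC), above the 1.2-fold size. Single arrays give no group in which an outlying sample could be sought.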

How the results depend on the processing

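Results were recomputed under 9 planned settings and 1 chosen after seeing the data, which admitted probe sets with several symbols. All 146 recomputed member differences lay within 1 SD of genes of like signal from their reported value, but many had no room to move. Settings that changed only which genes pass the floor kept the same brightest probe set, and so the same difference, for every member left. The median over probe sets likewise cannot move a member with a single probe set past the floor. Of the 146, 6 near 0 changed sign (SNHG29 under 2 settings on its probe sets, and SNHG11, LINC00235, LINC00847 and LINC01193 under lowess centring). The count of members at least 1.5-fold lower (2) was 0 with the floor at the 75th percentile, where 7 members remained, 1 with both values past the floor (MIR22HG alone), and 0 at 2-fold, and it was MIR22HG and LINC01588 under the other settings. The count higher (0) was 2 at 1.2-fold, SNHG7 and LINC00856, the latter past the floor through shRAP1 alone. Of 24 medians, 23 stayed inside the interval of the main value and all 24 were above 0. The exception was the LINC median, 0.23 with the higher floor, where it rested on LINC01547 alone. The medians had little room to move as well, since most settings reuse the same values. The SNHG interval, 0.00015 to 0.29, spans all 8 members from lowest to highest, so staying inside it says little. These intervals are over genes and leave out variation between cultures. Signal near the floor limits the dim LINC members and MIR22HG. No paired analysis was possible because each group has 1 array.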
